A study of Mus musculus with 11 samples.

Results

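The gluconeogenesis and insulin signalling genes are 9 mouse genes, Irs1, Irs2, Foxo1, Pck1, Fbp1, Slc37a4, Gpt2, Tat and Igfbp1. They were chosen by name, as all probes whose annotated gene symbol is one of the 9, of 19057 gene symbols on the array, and this gave 11 of its 45281 probes, with a pair of probes each for Foxo1 and Pck1. The 9 names were picked with earlier results of these data known. Counts of members given beside those of all probes are therefore descriptive and no test of the set. The study gave Curaxin-137, a small molecule, in drinking water to Her2/neu transgenic mice, and measured RNA of frozen livers and spleens on Illumina arrays. The labels name neither the promoter of the transgene nor the mouse strain, and all groups, controls included, are described by the series as this transgenic line.

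The livers came from mice on 0.2 mg/ml Curaxin-137 (2 arrays, numbered 73 and 85), 0.1 mg/ml (2 arrays, numbered 43 and 55) and plain water (2 arrays, numbered 1 and 25). The spleens came from mice on 0.2 mg/ml (2 arrays, numbered 62 and 62_86), 0.1 mg/ml (2 arrays, numbered 56 and 32) and plain water (1 array, numbered 8). Treatment ran for 10 weeks, between 4 and 14 weeks of age. The series describes 2 mice per treatment group. Both spleen labels at 0.2 mg/ml carry the number 62, so whether these arrays come from different mice was not settled.

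Gluconeogenesis makes glucose in the liver from lactate, glycerol and amino acids during fasting. Insulin slows it through a cascade in which the receptor phosphorylates the adaptor proteins Irs1 and Irs2, the kinase Akt is activated, and the transcription factor Foxo1 is kept out of the nucleus. Foxo1 is known to drive Irs2, Igfbp1, Pck1 and G6pc, and glucagon acts on Pck1 through a cyclic AMP response element.

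The 4 promoters shown here are those of the members in which the letters of an insulin response core were found (Irs1, Irs2 and Igfbp1) and that of Pck1, whose cyclic AMP response element is the textbook case. Each runs 5′ to 3′ on the strand of its gene, 250 bases before to 50 bases after the start, from RefSeq on build GRCm38.p6. Capitals mark the letters searched on both strands: CAAAACA or TGTTTTG for the insulin response core, GTAAACA or TGTTTAC for the forkhead site, CACGTG for the E-box, and CGTCA or TGACG for the cyclic AMP response half-site.
Irs1, chr1:82291390-82291689, minus strand: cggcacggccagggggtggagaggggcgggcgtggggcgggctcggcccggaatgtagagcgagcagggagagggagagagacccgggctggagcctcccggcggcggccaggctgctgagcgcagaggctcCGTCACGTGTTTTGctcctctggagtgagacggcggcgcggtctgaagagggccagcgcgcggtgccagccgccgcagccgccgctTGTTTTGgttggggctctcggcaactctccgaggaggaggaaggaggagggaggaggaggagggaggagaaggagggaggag
Irs2, chr8:11008880-11009179, minus strand: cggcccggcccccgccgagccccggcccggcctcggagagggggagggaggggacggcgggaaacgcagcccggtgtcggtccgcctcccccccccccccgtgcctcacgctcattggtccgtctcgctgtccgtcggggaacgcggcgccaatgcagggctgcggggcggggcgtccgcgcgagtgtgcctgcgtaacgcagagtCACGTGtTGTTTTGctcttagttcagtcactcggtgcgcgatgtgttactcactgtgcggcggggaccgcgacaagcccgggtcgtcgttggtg
Igfbp1, chr11:7197537-7197836, plus strand: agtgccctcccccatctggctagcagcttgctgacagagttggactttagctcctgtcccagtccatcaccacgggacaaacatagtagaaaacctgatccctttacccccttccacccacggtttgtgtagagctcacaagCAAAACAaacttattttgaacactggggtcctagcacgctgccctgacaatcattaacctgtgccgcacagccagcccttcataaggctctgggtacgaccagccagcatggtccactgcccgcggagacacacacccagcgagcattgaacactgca
Pck1, chr2:173152823-173153122, plus strand: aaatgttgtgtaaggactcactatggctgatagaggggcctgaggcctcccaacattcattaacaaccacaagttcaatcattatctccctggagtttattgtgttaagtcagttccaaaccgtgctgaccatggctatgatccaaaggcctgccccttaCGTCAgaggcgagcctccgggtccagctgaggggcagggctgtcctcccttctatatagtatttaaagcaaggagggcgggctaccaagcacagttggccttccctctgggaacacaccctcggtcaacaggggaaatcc

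In Irs1 the first capitalised block holds 3 overlapping matches, the half-site, the E-box and the core, and a second core starts 32 bases before the start site. In Irs2 the E-box and the core are neighbours without overlap, with the core starting 37 bases before the start site. The longest runs that both promoters share are GTCACGTGTT and TGTTTTGCTC, of 10 bases each. The Igfbp1 core starts 108 bases before the start site and the Pck1 half-site starts 90 bases before it. All 9 members matched the RefSeq table, with 11 promoters because Slc37a4 has 3. The insulin response core was in 3 of the 11 member promoters, against 6.28% of 32851 mouse promoters of the same length. The E-box was in 2 of the 11, against 7.15%, and the half-site in 4, against 20.8%. An overlapping pair of Slc37a4 promoters, which share a half-site match, both count among the 4. The forkhead letters were in none of the 11, against 3.65%. The matches are letters only and were not tested as binding sites.

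All levels here are log2 normalised intensities of a probe, and differences are in log2 units. A probe counts as detected on an array where the deposited detection p-value is under 0.05. Of the 11 member probes, 10 (8 genes) were detected on at least 2 liver arrays and entered the liver tests. In spleen 5 probes (Irs2, both of Foxo1, Slc37a4 and Gpt2) did so. Mean signals lay between 94.7 and 219 per array, with 35.8% to 43.2% of probes detected.

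The summed intensity of 7 hepatocyte markers was 45451 to 46569 on the liver arrays and 161 to 184 on the spleen arrays, as the tissue labels state. The Alb and Fgb probes were dim in liver, at 5.16 to 5.83 for Alb, and Fgb was detected on 1 of 6 liver arrays. Of 3 B cell, 4 adipocyte and 3 bile duct markers, 1 B cell marker was detected in liver, on control liver 1. Of 6 pancreatic acinar markers only Cela1 and Amy2a5 were detected on all 6. The control livers stood apart from each other more than the other liver pairs did, with a correlation of 0.970 across probes, against 0.988 at 0.1 mg/ml and 0.991 at 0.2 mg/ml. On control liver 25 the sum of 6 neutrophil markers was 1528, against 174 on control liver 1 and 120 to 190 on the 4 treated livers. In spleen the arrays at 0.1 mg/ml were the least alike (0.945). The neutrophil sum was 12167 on spleen array 32, against 2234 on array 56, 3256 and 3507 at 0.2 mg/ml and 1179 on the control. Array 32 also had the lowest sum of 3 B cell markers, at 2795, against 4168 to 5694 on the other 4 spleen arrays. Its sum of 2 erythroid markers was the highest, at 17060, against 6486 to 9432.

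**Figure D1:**
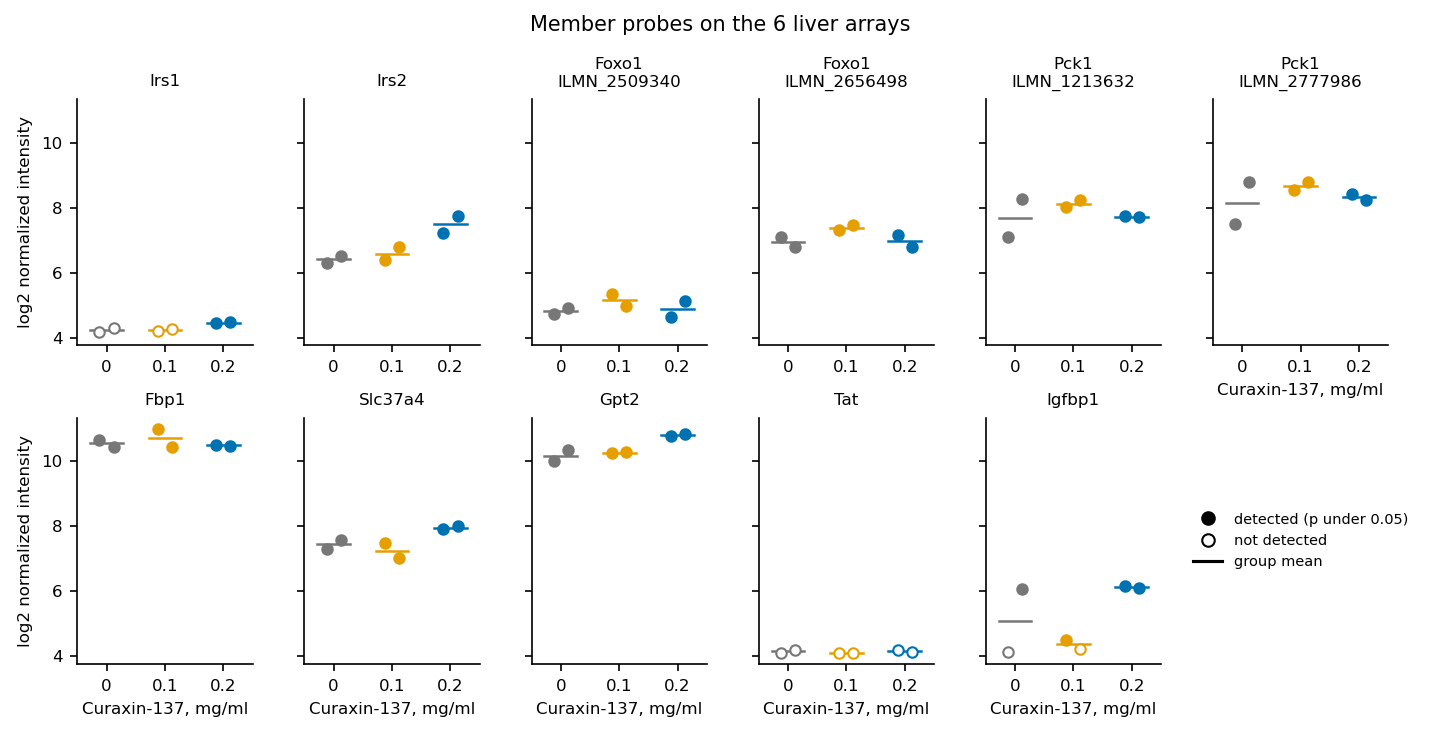
Log2 normalised intensity of the 11 member probes on the 6 liver arrays by Curaxin-137 dose in mg/ml; points are arrays, open points were not detected and lines are group means. Irs2, Gpt2, Slc37a4 and Irs1 read highest on both arrays at 0.2 mg/ml, while Igfbp1 on control liver 25 is level with the 0.2 mg/ml arrays.

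In liver the clearest readings at 0.2 mg/ml were those of Irs2, Gpt2 and Slc37a4, each higher on both treated arrays than on every other liver array. None passed the adjusted threshold against control, and no probe on the array did. With limma, 0 of the 10 tested member probes were called at an adjusted p under 0.05 for 0.2 mg/ml against control, against a background of 0% of 18221 probes. Unadjusted, 3 member probes passed 0.05 higher (background 4.52%) and 0 passed lower (background 4.14%). Because the members were picked with earlier results of these data known, this count and the next ones are no test of the set. Irs1 entered the liver tests only through its detection on the 2 arrays at 0.2 mg/ml, which fixed its direction there, so it is left out of the next counts. Of the other 9 member probes 4 (Irs2, Slc37a4, Gpt2 and Igfbp1) had both 0.2 mg/ml arrays above both controls, and 0 had both below. Of all tested probes 19% lay wholly higher and 19.4% wholly lower, and of the 16371 detected in both groups 18.9% and 17.4%. The median difference was 0.18 over the 9 and 0.01 over the 16371, and 8 of the 9 had a positive difference, against 49.6% of all tested probes and 51.1% of the 16371. Among the 8 are 2 probes each of Foxo1 and Pck1, with differences of only 0.03 to 0.18, each smaller than its standard error. All 9 values also share the same 2 control arrays, so they are not independent of each other.

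Irs2 (chr8:10984681-11008929) encodes the adaptor that carries much of the insulin signal in hepatocytes and is itself transcribed more in fasting. It read 6.31 and 6.51 in control livers, 6.38 and 6.79 at 0.1 mg/ml and 7.23 and 7.74 at 0.2 mg/ml. Both livers at the higher dose stood above all 4 others, and the lower dose overlapped the controls. The difference at 0.2 mg/ml over control was 1.08 ± 0.22 (SE, 95% interval 0.56 to 1.59), with an adjusted p of 0.261 in limma. It was positive under all 15 alternatives, between 0.82 and 1.33, and was 1.17 in the fit without control liver 25. Where a liver fit leaves 1 control array, as this one does, that array is assumed to vary as the treated pairs do. Because these are bulk samples, a change in the number of cells of a type and a change in RNA per cell cannot be told apart here.

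Irs1 (chr1:82233105-82291439), the sister adaptor, was near the background of the array. It read 4.19 and 4.30 in control livers and 4.21 and 4.27 at 0.1 mg/ml, detected on none of the 4, and 4.44 and 4.48 at 0.2 mg/ml, detected on both. The readings at 0.2 mg/ml were thus the highest, by a margin close to the detection limit. Set against the lowest signal counted as detected, the level was at least 1.06-fold higher at 0.2 mg/ml than in control (limma, adjusted p = 0.722) and at least 1.04-fold higher than at 0.1 mg/ml (adjusted p = 0.680).

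Foxo1 (chr3:52268337-52350109), the transcription factor that insulin holds in the cytoplasm, has a dim and a bright probe. The dim one (ILMN_2509340) read 4.74 and 4.93 in control livers, 5.36 and 4.99 at 0.1 mg/ml and 4.65 and 5.12 at 0.2 mg/ml. The bright one (ILMN_2656498) read 7.10 and 6.80, then 7.31 and 7.47, then 7.16 and 6.80 in the same order of doses. On both probes the livers at 0.1 mg/ml lay above the controls without overlap, and those at 0.2 mg/ml overlapped the controls. At 0.1 mg/ml over control the differences were 0.34 ± 0.21 (dim) and 0.44 ± 0.19 (bright; SE), with an adjusted p of 0.992 for each in limma. At 0.2 mg/ml over control they were 0.05 ± 0.21 and 0.03 ± 0.19, with 95% intervals of -0.44 to 0.53 and -0.41 to 0.47.

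Pck1 (chr2:173153073-173159274), which makes phosphoenolpyruvate and is the entry step of gluconeogenesis in the cytosol, was measured by 2 probes with similar patterns. ILMN_2777986 read 7.51 and 8.78 in control livers, 8.55 and 8.78 at 0.1 mg/ml and 8.42 and 8.23 at 0.2 mg/ml. ILMN_1213632 read 7.08 and 8.26, then 8.02 and 8.22, then 7.75 and 7.70. Control liver 1 was the lowest array on both probes and control liver 25 was level with or above the treated livers, so the control spread spans both doses. The differences at 0.2 mg/ml over control were 0.18 ± 0.35 and 0.05 ± 0.33 (SE), and their 95% intervals reached from -0.63 to 0.99 and from -0.70 to 0.81. Without control liver 25 the first became 0.81, and without control liver 1 it became -0.45, so its sign depends on which control is used.

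Fbp1 (chr13:62864753-62888298) removes a phosphate from fructose 1,6-bisphosphate, one of the irreversible steps of the pathway. It read 10.65 and 10.45 in control livers, 11 and 10.44 at 0.1 mg/ml and 10.51 and 10.46 at 0.2 mg/ml. The 3 groups overlapped. The difference at 0.2 mg/ml over control was -0.06 ± 0.21 (SE, 95% interval -0.54 to 0.42; limma, adjusted p = 0.957).

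Slc37a4 (chr9:44396946-44402966) carries glucose 6-phosphate into the endoplasmic reticulum, where G6pc releases glucose from it. Slc37a4 read 7.30 and 7.59 in control livers, 7.48 and 7.02 at 0.1 mg/ml and 7.91 and 8.01 at 0.2 mg/ml. The higher dose lay above all other livers, and the lower dose held the lowest array. The difference at 0.2 mg/ml over control was 0.52 ± 0.20 (SE, 95% interval 0.06 to 0.98; limma, unadjusted p = 0.0321, adjusted p = 0.539), and it stayed between 0.34 and 0.66 under 15 alternatives.

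Gpt2 (chr8:85492576-85528902), the mitochondrial alanine aminotransferase that turns alanine into pyruvate, read 10.00 and 10.34 in control livers, 10.26 and 10.28 at 0.1 mg/ml and 10.77 and 10.84 at 0.2 mg/ml. The arrays at 0.2 mg/ml were close together and above all others. The difference over control was 0.64 ± 0.17 (SE, 95% interval 0.25 to 1.03; limma, adjusted p = 0.367), between 0.47 and 0.82 under 15 alternatives. Without control liver 25 the difference was 0.82, in a fit that leaves 1 control array.

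Tat (chr8:109986078-109999804), the tyrosine aminotransferase of liver, was not detected on any of the 11 arrays. Its liver readings were 4.12 and 4.19 in controls, 4.12 and 4.11 at 0.1 mg/ml and 4.21 and 4.14 at 0.2 mg/ml. Tat is a gene that liver is known to express, so these readings say only that this probe gave no signal above background, and it entered no test.

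Igfbp1 (chr11:7197787-7202546), a secreted binding protein for insulin-like growth factors that insulin represses, had the widest spread of the members in liver. Igfbp1 read 4.15 and 6.06 in control livers, 4.51 and 4.24 at 0.1 mg/ml and 6.15 and 6.11 at 0.2 mg/ml. It was detected on 1 of 2 controls (number 25), on 1 of 2 livers at 0.1 mg/ml (number 43) and on both at 0.2 mg/ml. Control liver 25 was nearly level with the 0.2 mg/ml livers and control liver 1 with the 0.1 mg/ml livers. The difference at 0.2 mg/ml over control was 1.03 ± 0.50 (SE, 95% interval -0.11 to 2.17; limma, adjusted p = 0.611). It was 0.07 without control liver 1. Without control liver 25 the remaining control was not detected, and Igfbp1 was at least 3.29-fold higher at 0.2 mg/ml.

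**Figure D2:**
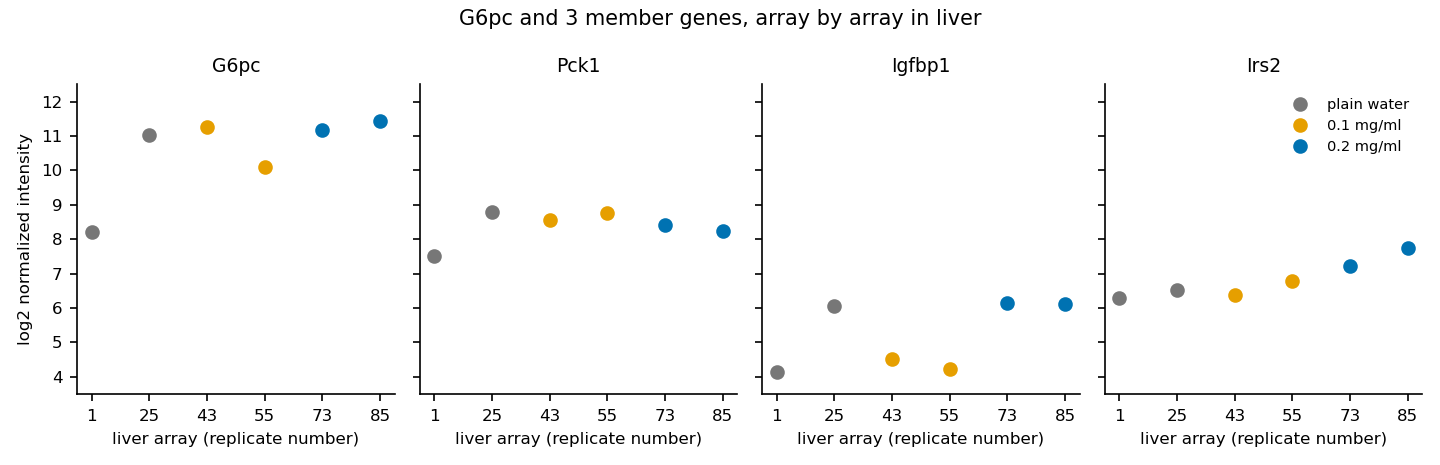
Log2 normalised intensity of G6pc, Pck1 (ILMN_2777986), Igfbp1 and Irs2 on each of the 6 liver arrays, named by replicate number and coloured by dose. Control liver 1 is low for G6pc, Pck1 and Igfbp1, control liver 25 is not, and Irs2 has similar values on both controls.

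The same split of the control livers was seen in G6pc, which releases free glucose and is the last step of the pathway. G6pc read 8.21 and 11.03 in control livers, 11.25 and 10.11 at 0.1 mg/ml and 11.17 and 11.43 at 0.2 mg/ml. Only control liver 1 was low, and its distance to control liver 25 exceeded the distance between the dose means. The difference at 0.2 mg/ml over control was 1.68 ± 0.76 (SE; limma, adjusted p = 0.585). Irs2, with 6.31 and 6.51 on the same 2 controls, did not show this split.

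Between the 2 doses in liver, Igfbp1, Irs2, Slc37a4 and Gpt2 read higher at 0.2 mg/ml and Pck1 and Foxo1 lower. These contrasts use no control array in their means, although the controls enter the estimate of the spread. With limma 0 of 10 member probes were called, against a background of 0% of 18221 probes. Unadjusted, 4 passed 0.05 higher (background 4.62%) and 0 lower (background 4.37%). Without Irs1, 4 of 9 member probes did not overlap with 0.2 mg/ml higher (background 23.6%, or 23.1% of the 15946 probes detected in both groups). In 3, both Pck1 probes and Foxo1 ILMN_2656498, the groups did not overlap with 0.2 mg/ml lower (background 23.2%, or 22.8%). The median over the 9 was -0.23, against 0.00 over the 15946.

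Igfbp1 averaged 6.13 ± 0.03 at 0.2 mg/ml and 4.37 ± 0.20 at 0.1 mg/ml (SD, n = 2 each), a difference of 1.76 ± 0.50 (SE, 95% interval 0.62 to 2.90). Its adjusted p was 0.425 in limma, and 0.000592 without control liver 1 and 0.000521 without control liver 25; the controls themselves lay 1.92 apart. The difference was 0.93 with an offset of 50 and between 1.22 and 1.91 under the other processing. Without liver 43 the remaining array at 0.1 mg/ml was not detected, and Igfbp1 was at least 3.44-fold higher at 0.2 mg/ml (adjusted p = 0.851). Irs2 differed by 0.90 ± 0.22 (adjusted p = 0.425), Slc37a4 by 0.71 ± 0.20 (adjusted p = 0.429) and Gpt2 by 0.54 ± 0.17 (SE; adjusted p = 0.466). The Pck1 probes differed by -0.39 ± 0.33 and -0.34 ± 0.35 and the Foxo1 probes by -0.29 ± 0.21 and -0.41 ± 0.19, and none of the 4 passed an unadjusted p of 0.05.

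At 0.1 mg/ml against control no member passed either threshold in limma (0 of 10 called, background 0%; unadjusted 0 of 10, against 2.18% of all probes higher and 1.88% lower). The differences were 0.52 and 0.45 for Pck1, 0.18 for Irs2, 0.17 for Fbp1, 0.10 for Gpt2, -0.19 for Slc37a4 and -0.73 for Igfbp1. Both Foxo1 probes were the members without overlap (background 14.9% higher and 15.2% lower). The standard error for Igfbp1 was 0.50. Without control liver 1 its difference was -1.66, while without control liver 25 it was at least 1.00-fold higher at 0.1 mg/ml, since the remaining control was not detected. The 2 comparisons with control share the control arrays, so their member values are not independent of each other.

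**Figure D3:**
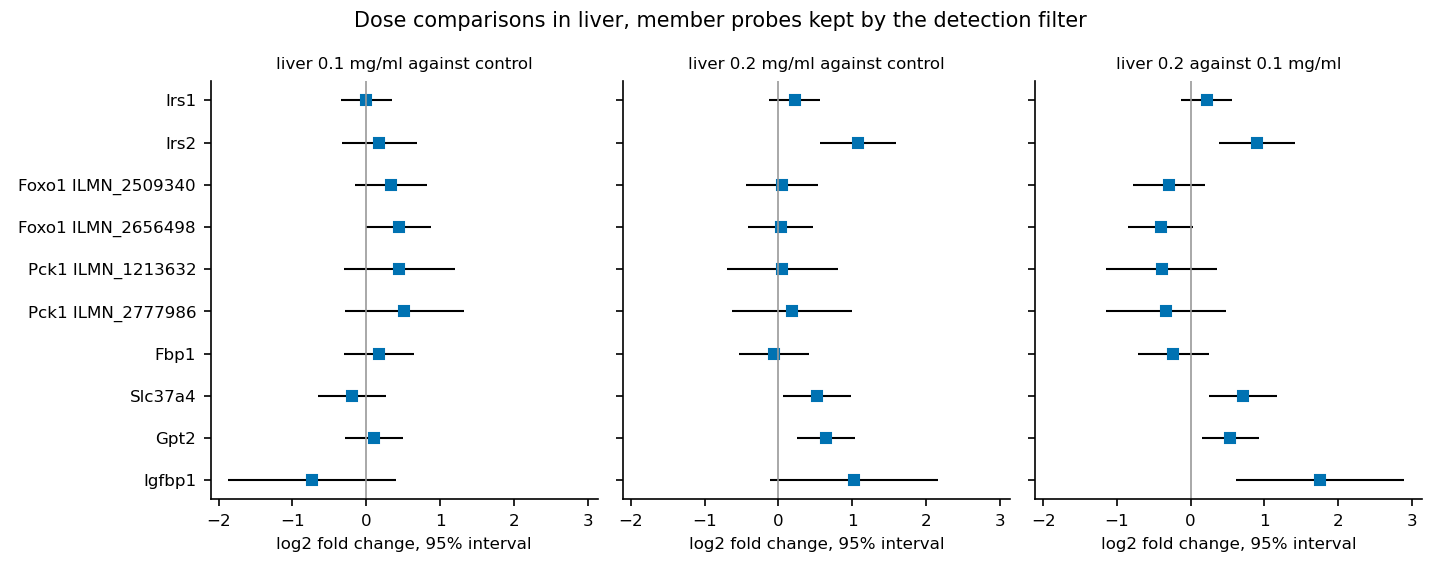
Log2 differences (squares) and 95% intervals (lines) of the 10 tested member probes in liver for 0.1 mg/ml against control, 0.2 mg/ml against control and 0.2 against 0.1 mg/ml. The intervals of Irs2, Slc37a4 and Gpt2 lie above 0 at 0.2 mg/ml over control, that of Igfbp1 only against 0.1 mg/ml, and the fitted Irs1 difference comes from readings near the detection limit.

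Summed markers of other cell types also differed between the liver groups. The sum of 5 endothelial markers was 1351 and 1334 in control livers, 1746 and 1594 at 0.1 mg/ml and 1939 and 2248 at 0.2 mg/ml, without overlap between groups. Clec4g was by far the brightest of the 5, so this linear sum mostly follows Clec4g. Clec4g, Oit3 and Pecam1 read higher on both 0.2 mg/ml livers than on both controls. Stab2 did not, with 6.66 and 6.51 in control livers and 6.33 and 6.48 at 0.2 mg/ml. Kdr was detected on only 2 of 6 livers. The sum of 6 macrophage markers was 716 and 1084, then 999 and 900, then 1121 and 1400. The sum of 7 hepatocyte markers stayed between 45451 and 46569 on the same arrays. Most of it came from Apoa1, Ttr, Ahsg and Cyp2e1, which lie at the top of the quantile-normalised scale. Quantile normalisation makes the top values alike on every array, so this sum cannot show whether hepatocyte content differed. The part of these cell types in the member readings was not tested.

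**Figure D4:**
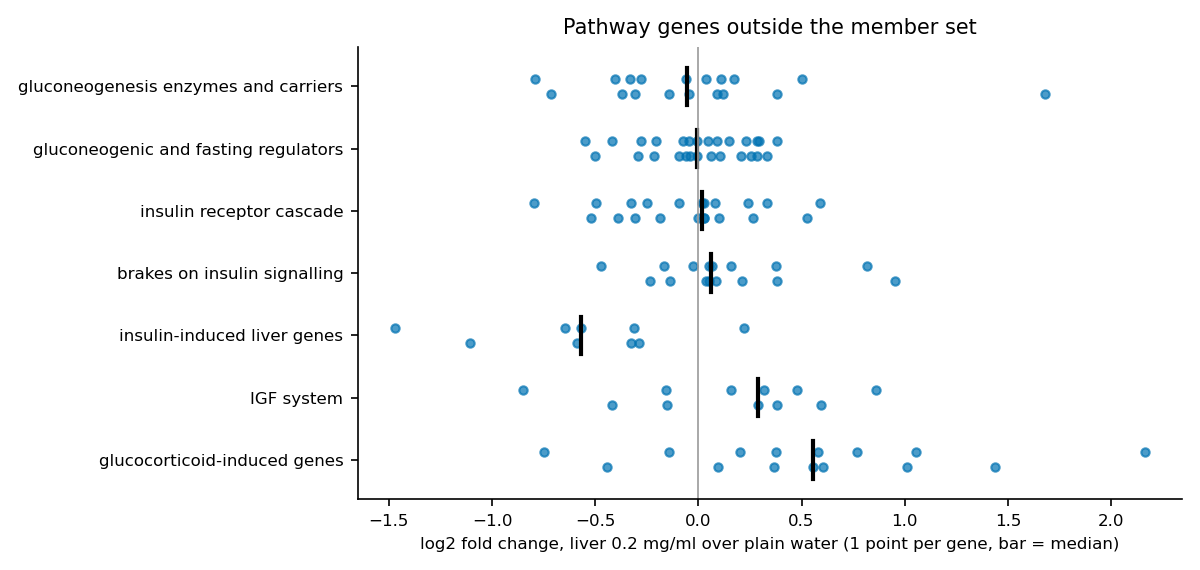
Log2 differences at 0.2 mg/ml over plain water in liver for genes of 7 pathway lists outside the members, 1 point per gene with the list median as a bar. The insulin-induced liver genes lie mostly below 0 with a median of -0.57, and the glucocorticoid-induced genes mostly above 0 with a median of 0.56.

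The wider pathway was followed in 7 lists of genes that are not members. In limma 0 genes of the 7 lists passed the adjusted threshold in the 3 liver dose comparisons. At 0.2 mg/ml over control the median over all 10246 named genes was 0.01, with 52.7% of them higher. Of 18 measured gluconeogenesis enzymes and carriers 8 were higher, with a median of -0.05. The cytosolic aminotransferase Gpt differed by 0.50 and the mitochondrial Got2 by 0.38. Gpd1, which links glycerol to glycolysis, differed by -0.79, and the glycolytic mutase Pgam1 by -0.72. In limma 2 of the 18 passed an unadjusted p of 0.05 higher and 3 lower. The 4 named here had the smallest p-values of the list, with adjusted p-values of 0.421 to 0.539. The enzymes outside the members thus differed in both directions.

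The 27 measured regulators of fasting gluconeogenesis had 13 higher and a median of -0.00. Ppargc1a, a coactivator that raises gluconeogenic genes in fasting, read 6.08 and 7.12 in control livers, 7.78 and 6.77 at 0.1 mg/ml and 6.85 and 6.16 at 0.2 mg/ml. Its groups overlapped, with a difference of -0.09 ± 0.42 (SE; limma, adjusted p = 0.966) at 0.2 mg/ml over control. Of 21 genes of the insulin receptor cascade 11 were higher, with a median of 0.02. The receptor itself, Insr, read 9.48 and 9.44 in control livers, 9.40 and 9.47 at 0.1 mg/ml and 9.49 and 9.59 at 0.2 mg/ml, a difference of 0.08 ± 0.15 (SE, 95% interval -0.27 to 0.43). Within that cascade Gab1 (0.59) and Tsc2 (0.53) were higher and Gsk3a (-0.80) and Mtor (-0.50) lower at an unadjusted p under 0.05. Of 16 brakes on insulin signalling 11 were higher, with a median of 0.06, and Tns1 (0.82) and the phosphatase Inpp5k (0.37) passed the unadjusted threshold.

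Insulin-induced liver genes, which insulin drives mainly through Srebf1, were lower in 8 of 9 at 0.2 mg/ml than in control, with a median of -0.57, or -0.44 with Fasn at its bound. Fasn, the fatty acid synthase, read 4.83 and 4.87 in control livers, 4.7 and 4.52 at 0.1 mg/ml and 4.26 and 4.26 at 0.2 mg/ml. It was not well above background on either array at the higher dose, so it was at least 1.36-fold lower there (limma, adjusted p = 0.367). Pklr, the liver pyruvate kinase, read 6.63 and 6.35, then 6.50 and 6.61, then 5.94 and 5.76. The Pklr values at 0.2 mg/ml were below all 4 others, with a difference of -0.64 ± 0.17 over control (SE; adjusted p = 0.367). Elovl6, a fatty acid elongase, differed by -1.11 and Pnpla3, a lipid droplet protein, by -1.47. Pnpla3 read 4.99 and 7.46 in control livers, 4.74 and 4.87 at 0.1 mg/ml and 4.78 and 4.73 at 0.2 mg/ml, so control liver 25 alone was high. Without control liver 25 the list median was -0.22. Against 0.1 mg/ml all 9 were lower at 0.2 mg/ml, with a median of -0.34, or -0.28 with Fasn at its bound.

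Glucocorticoid-induced genes were higher in 12 of 15 at 0.2 mg/ml than in control, with a median of 0.56. Dusp1, a phosphatase of MAP kinases, read 7.03 and 8.29 in control livers, 9.36 and 8.47 at 0.1 mg/ml and 10.21 and 9.44 at 0.2 mg/ml. All treated livers were above both controls, and the difference at 0.2 mg/ml was 2.16 ± 0.45 (SE; limma, adjusted p = 0.261). Zbtb16 differed by 1.44, Fkbp5, a chaperone of the glucocorticoid receptor, by 0.77 and Angptl4 by 0.58. The list median depended on single arrays, at 0.26 without control liver 1, 0.85 without control liver 25 and 0.21 without liver 73. The list was mostly higher in spleen too, against the single control. There 11 of 16 genes were higher at 0.2 mg/ml and 13 of 16 at 0.1 mg/ml, with a median of 0.27 at each dose. Of all named genes in spleen 50.8% and 54.6% were higher. Of 11 measured genes of the insulin-like growth factor system 7 were higher, with a median of 0.29, or 0.15 without control liver 25. At an unadjusted p under 0.05 in limma 4 of the 11 were higher and 2 lower, where 4.52% and 4.14% of all tested probes were. Igfbp5 (0.86) and Igfbp7 (0.59) were among the higher ones, and Igfbp2 (-0.85) and Stat5a (-0.42) were the lower ones. Igfbp2 read 10.52 and 9.81 in control livers, 9.35 and 9.25 at 0.1 mg/ml and 9.09 and 9.54 at 0.2 mg/ml, with all 4 treated livers below both controls.

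At 0.1 mg/ml over control the glucocorticoid list had a median of 0.24 and the insulin-induced list of -0.06, against -0.00 over all named genes. Zbtb16 differed by 1.82, Lpin1 by 1.29 and Angptl4 by 0.91 at that dose, each with an adjusted p of 0.992 in limma.

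Likeness of pattern was measured over the 6 liver arrays as the root mean square difference of mean-centred log2 values, against 10238 named genes outside the members. Irs2 was closest to Dab2 (0.07), Olig1 (0.11) and Per2 (0.15), where its own spread around its mean was 0.51. Gpt2 was closest to Itga9 (0.03), Notch4 and Ednrb (0.05 each), and Slc37a4 to Ctss (0.06). Igfbp1, which varied most (0.91), had Cyp2b23 (0.29) as its nearest profile. Pck1 was closest to Slc35e3 (0.13), Foxo1 and Fbp1 to Copa and Tmc4 (0.04 each) and Irs1 to Zfp711 (0.02). Small values for Irs1 and Fbp1 go with their small spreads of 0.11 and 0.20.

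**Figure D5:**
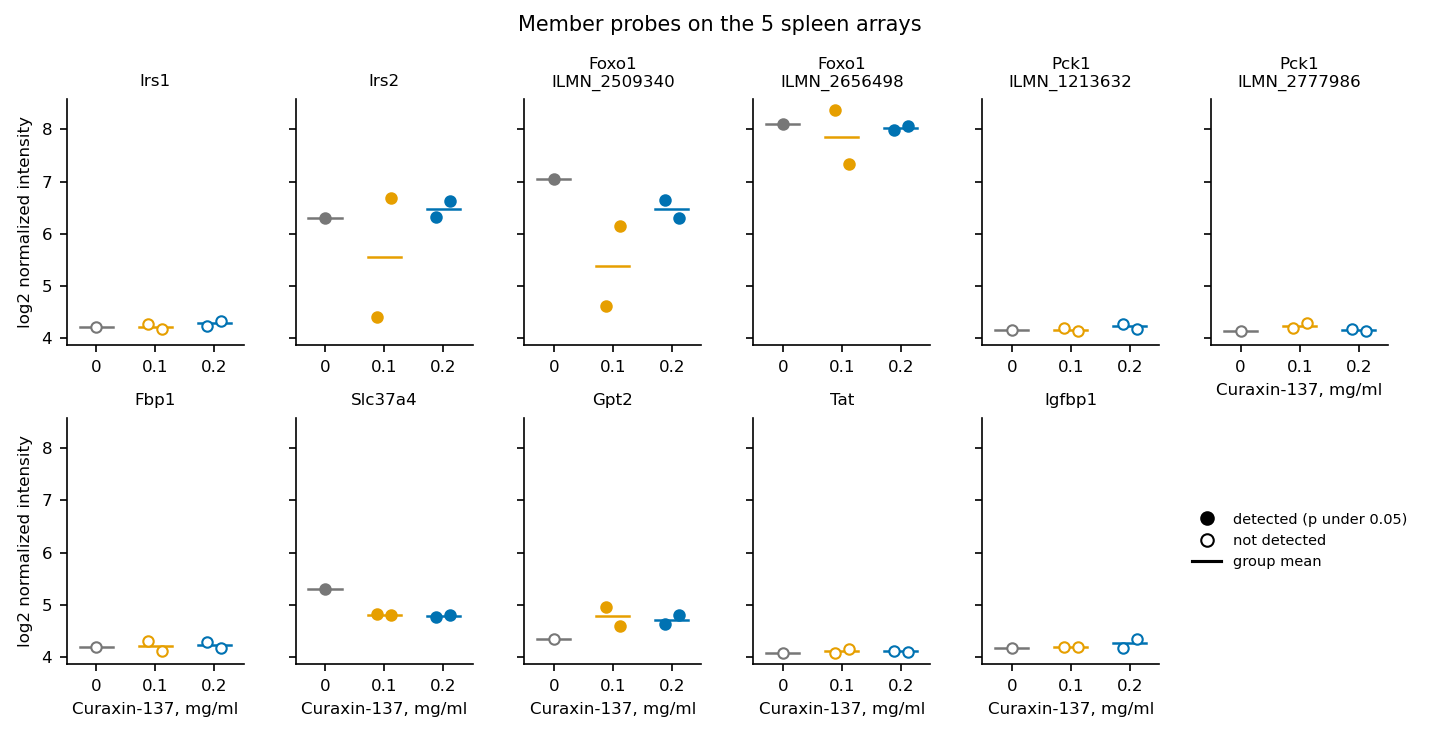
Log2 normalised intensity of the 11 member probes on the 5 spleen arrays by Curaxin-137 dose in mg/ml, drawn as for the liver arrays but on a narrower axis. The control is 1 array, Irs2 and Foxo1 differ widely between the arrays at 0.1 mg/ml, and Irs1, Pck1, Fbp1, Tat and Igfbp1 were not detected.

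In spleen Irs1, Fbp1, Igfbp1, Tat and both Pck1 probes were not detected on any of the 5 arrays. The detected members were Irs2, Foxo1, Slc37a4 and, on 4 arrays, Gpt2. Irs2 read 6.31 on the control, 4.42 and 6.68 at 0.1 mg/ml and 6.33 and 6.62 at 0.2 mg/ml. Foxo1 ILMN_2509340 read 7.06 on the control, 4.62 and 6.15 at 0.1 mg/ml and 6.64 and 6.30 at 0.2 mg/ml. Array 56 was the low one at 0.1 mg/ml on both of these probes. Array 56 also had the highest mean signal of all 11 arrays, at 219, and array 32, the other at this dose, the lowest, at 94.7. Array 32 is the one apart in neutrophil, B cell and erythroid markers. The part of these cells and of the signal level in the readings was not tested. On Foxo1 ILMN_2656498 array 56 was the highest, with 8.10 on the control, 8.37 and 7.34 at 0.1 mg/ml and 7.98 and 8.06 at 0.2 mg/ml. The Foxo1 probes thus disagreed on array 56.

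Slc37a4 read 5.31 on the control spleen, 4.82 and 4.80 at 0.1 mg/ml and 4.76 and 4.80 at 0.2 mg/ml. All 4 treated spleens were alike and below the single control. Gpt2 was not detected on the control (4.35) and read 4.96 and 4.60 at 0.1 mg/ml and 4.63 and 4.80 at 0.2 mg/ml, at least 1.26-fold higher at 0.2 mg/ml and at least 1.31-fold higher at 0.1 mg/ml than in the control (limma, adjusted p = 1.00 and 0.664).

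No spleen comparison called a member in limma. The background of calls was 0% of 20364 probes for each dose against control and 0.00491% between the doses. At 0.1 mg/ml over control Foxo1 ILMN_2509340 differed by -1.68 ± 0.58 (SE; unadjusted p = 0.0232, adjusted p = 0.499), and Foxo1 ILMN_2656498 by -0.24 ± 0.42. This was 1 member passing an unadjusted p of 0.05 lower, where 5.29% of all probes did. Gpt2 was not detected on the single control and entered only through treated arrays, so it is left out of the counts against control. Of the other 4 member probes 0 lay wholly higher and 2 wholly lower. Of all tested probes 34.2% and 32.6% did, and of the 17676 detected in both groups 31.7% and 33.7%. Irs2 differed by -0.76 ± 0.80 and Slc37a4 by -0.50 ± 0.25 (SE). Without array 32 Irs2 became -2.01 and Foxo1 ILMN_2509340 -2.54. Without array 56 Irs2 became 0.35, and the Foxo1 probes -0.88 and -0.75. Without array 32 Foxo1 ILMN_2656498 became 0.27. These fits assume that lone arrays vary as the remaining pair does, and the directions for Irs2 and Foxo1 ILMN_2656498 depend on which array is kept.

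At 0.2 mg/ml over the control spleen Irs2 differed by 0.16 ± 0.80, the Foxo1 probes by -0.59 ± 0.58 and -0.08 ± 0.42 and Slc37a4 by -0.52 ± 0.25 (SE), with adjusted p-values of 0.982 or more. Without Gpt2, 1 of 4 member probes lay wholly higher and 3 wholly lower. Of all tested probes 36.4% and 37.9% did, and of the 17752 detected in both groups 33.9% and 40.1%. Between the doses, 0.2 over 0.1 mg/ml, Irs2 differed by 0.93 ± 0.65 and Foxo1 ILMN_2509340 by 1.09 ± 0.47 (SE; adjusted p = 0.725 and 0.579). Foxo1 ILMN_2509340 was the 1 member without overlap, where 20.5% of all probes lay wholly higher and 19.7% wholly lower. Without array 32 these were 2.17 and 1.94, and without array 56 the Irs2 difference was -0.20.

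The response to the drug was compared between tissues in 1 fit of all 11 arrays, as the liver difference minus the spleen difference. With limma 0 of 10 member probes were called at 0.1 mg/ml, at 0.2 mg/ml or between the doses, against backgrounds of 0%, 0.0466% and 0.00424% of 23604 probes. At 0.2 mg/ml the tissue difference was 0.85 ± 0.83 for Irs2, 0.31 ± 0.25 for Gpt2, 1.05 ± 0.84 for Igfbp1 and 0.91 ± 0.28 for Slc37a4 (SE; adjusted p = 0.414 for Slc37a4). Slc37a4 was higher on both treated livers than on the controls and lower on both treated spleens than on the control. A response of these genes in liver alone was thus not shown by the test of the difference.

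Between the tissues themselves the members differed clearly. Irs1, Fbp1, Igfbp1 and both Pck1 probes were detected on no spleen array and entered the test only through liver, which fixed their direction. Of the 5 member probes detected in both tissues all 5 were called in limma over the mean of the 3 groups of each tissue, 3 higher in liver and 2 lower. The background was 59.5% of 23604 tested probes, and 60.2% of the 18943 detected in both tissues. Fbp1 averaged 10.41 ± 0.20 in liver (SD, n = 6) and was not detected in spleen (4.20 ± 0.07, SD, n = 5), at least 66.4-fold higher in liver (adjusted p = 1.83e-10). Gpt2 averaged 10.26 ± 0.29 in liver and 4.55 ± 0.17 in spleen, a difference of 5.75 ± 0.10 (SE; adjusted p = 1.12e-10). The Pck1 probes averaged 7.97 ± 0.40 and 8.46 ± 0.43 in liver and were not detected in spleen, at least 12.3-fold and 17.2-fold higher in liver (adjusted p = 9.08e-08 and 5.93e-08). Slc37a4 averaged 7.71 ± 0.35 in liver and 4.73 ± 0.19 in spleen, a difference of 2.93 ± 0.11 (SE; adjusted p = 1.60e-08). These 4 genes separated the tissues without overlap. Of the 5 member probes detected in both tissues 3 (Irs2, Gpt2 and Slc37a4) lay wholly higher in liver and 0 wholly lower. Of all tested probes 20.0% and 25.4% did, and of those detected in both tissues 19.9% and 24.2%.

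The signalling members were less far apart. Irs2 averaged 7.02 ± 0.53 in liver and 5.85 ± 0.84 in spleen (SD), a difference of 1.14 ± 0.33 (SE; limma, adjusted p = 0.0136) without overlap. Igfbp1 was at least 1.98-fold higher in liver (adjusted p = 0.0136), with overlap, and 2 of 6 liver arrays were not above background. Foxo1 was lower in liver on both probes, with 5.17 ± 0.28 against 5.92 ± 0.87 in spleen on ILMN_2509340 and 7.29 ± 0.25 against 7.79 ± 0.42 in spleen on ILMN_2656498 (SD). The differences were -0.89 ± 0.24 (adjusted p = 0.010) and -0.52 ± 0.20 (SE; adjusted p = 0.0439), and the tissues overlapped on both probes. The second was called under 7 of 18 alternatives. Irs1 was not called (at least 1.00-fold higher in liver, adjusted p = 0.192), but it was called with each array scaled to its 75th percentile (adjusted p = 0.0377) and with no detection filter (adjusted p = 0.0476). The 75th percentile scaling moved the median of all probes to 0.25, against -0.05 here, and the share of probes higher in liver to 61.7%, against 46.2%, and under it both Foxo1 probes stayed lower in liver.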

How the data were processed

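The data are arrays of 6 livers and 5 spleens. The authors deposited a linear intensity and a detection p-value per probe and array, per the file headers. The submitters' processing notes name GenomeStudio 1.6.0. The way the detection p-values were derived is not given in the labels. The authors' deposited log2 values, used as an alternative, equal the quantile-normalised signals, and the column medians lie between 5.10 and 5.11, so their scale and direction are settled.

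Here the intensities of each tissue were processed with neqc of limma 3.58.1 in R 4.3.3 (normexp background correction from the detection p-values, offset of 16, quantile normalisation, log2), and those of both tissues together for contrasts between tissues. Probes were kept if detected (p-value under 0.05) on 2 or more arrays, and each probe was tested on its own. lmFit with 1 mean per group and eBayes were used, with Benjamini-Hochberg adjustment over all kept probes and a call at an adjusted p under 0.05. The method was tested on simulated data. Where a group was not detected on any array, the difference is a bound against the lowest detected signal, given as "at least".

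Of 45281 probes 34885 have 1 gene symbol in the platform annotation, 18 several and 10378 none. Coordinates and promoters are those of RefSeq on GRCm38.p6. Every member probe is named. Of each pathway list up to 4 genes per comparison with an unadjusted p under 0.05 were eligible to be named, besides G6pc, Insr and Ppargc1a, and up to 3 nearest profiles per member. The members, lists and marker sets were chosen with earlier results of these data known.

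Nothing states whether arrays of a group come from separate animals beyond the series' own count of mice, so the p-values reflect only how far these samples spread, and the number of arrays limits the precision. The spread of the single spleen control, and of any group left with 1 array, was taken from the remaining groups. Alternatives were another scaling, no background correction, the authors' values, another offset, no and stricter detection filters, 1 probe per gene, another moderation, 1 fit of all 11 arrays, the spleen arrays numbered 62 averaged, and each array left out.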

Additional observations from a re-analysis of the deposited data

Results flagged for a closer look

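Movement here is the difference of an array from the mean of the group it was compared with. The share of all probes that moved in opposite ways in the tissues was not counted. Some members moved one way on every liver array of a dose and the opposite way on every spleen array of that dose. At 0.1 mg/ml over control this held for Foxo1 ILMN_2509340, with a tissue difference of 1.98 ± 0.61 (SE; limma, adjusted p = 0.369), and the spleen side rests mainly on array 56 and on 1 control array. At 0.2 mg/ml over control it held for Slc37a4, with 0.91 ± 0.28 (SE; adjusted p = 0.414). Between the doses, 0.2 over 0.1 mg/ml, the tissue difference was -1.33 ± 0.55 for Foxo1 ILMN_2509340 (adjusted p = 0.618), -0.56 ± 0.45 for Foxo1 ILMN_2656498 (adjusted p = 0.791) and 0.68 ± 0.25 for Slc37a4 (SE; adjusted p = 0.593). Between the doses the spleen side was only -0.03 ± 0.21 for Slc37a4 and 0.17 ± 0.35 for Foxo1 ILMN_2656498 (SE), and the spleen groups overlapped for both. None of the 5 passed the test of the difference itself.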

How the results depend on the processing

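Between liver and spleen 9 member probes were called with all arrays and 8 or 9 with an array left out. Of all tested probes 59.5% were called with all arrays. Fbp1, Igfbp1 and both Pck1 probes were among the 9, and they entered only through liver, which fixed their direction. Under the stricter detection filter 3 member probes were called, because fewer probes were tested, and under the other processing 7 to 9. For the dose comparisons and the tissue differences the counts changed only where an array was left out. With each array left out in turn the counts ranged over 0 to 1 for 0.1 mg/ml against control in liver, 0 to 4 for 0.2 mg/ml against control, 0 to 1 between the doses, 0 to 2 in spleen for 0.1 mg/ml against control and for 0.2 against 0.1 mg/ml, 0 to 2 for the tissue difference at 0.1 mg/ml and 0 to 1 for that between the doses. The 4 calls in liver (Irs2, Pck1, Gpt2 and Igfbp1) came without control liver 25, when 837 of all probes were called as well. Over all probes, leaving out 1 array gave at most 414, 837 and 274 calls in the 3 liver dose comparisons, against 0 in each with all arrays. In spleen it gave at most 2927 and 1197 against control, with 0 each from all arrays, and 2463 between the doses, with 1 from all arrays. For the tissue differences it gave at most 743, 96 and 650, with 0, 11 and 1 from all arrays. Other processing gave at most 6 calls in liver, 83 in spleen and 24 for the tissue differences, and the stricter filter 7354 between liver and spleen, with 14038 in the main setting. No member probe called with all arrays turned its direction. Of the 16 member results called only under an alternative, 7 had the other sign under another. They are Irs2 in 3 comparisons with spleen arrays at 0.1 mg/ml and Foxo1 ILMN_2656498 in 2, all turning between array 56 and array 32 left out, and Pck1 ILMN_2777986 and Igfbp1 in liver, both turning between the controls. Foxo1 ILMN_2656498 between the spleen doses also turned, to -0.11, under 75th percentile scaling. Of 1324 values of single member probes under alternatives, 1231 kept their direction and their side of the threshold, 60 turned sign, 26 of these by over 1 standard error, 19 passed the threshold newly and 14 no longer did. Where the arrays labelled 62 and 62_86 were counted as 1 sample the spleen counts stayed at 0. With array 32 or 56 left out, the spleen fits took their spread only from 62 and 62_86, which may not be different mice. No paired analysis was possible because the groups share no replicate number. Whether a liver and a spleen array come from the same mouse is not given in the labels. The tests between tissues treat all arrays as separate, so any such pairing was left out of their p-values. Signals near background limit Irs1, Igfbp1, Tat and Gpt2 in spleen, where only a bound can be given.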
